A study of Pyrus pyrifolia with 6 samples.

Results

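The metallothionein-like genes LOC103944923 (metallothionein-like protein 1) and LOC103944925 (metallothionein-like protein type 2) are neighbours on 1 scaffold of the pear genome. They are 2 of the 4291 genes for which the authors deposited values for each library, and they were picked by name from that table. The table lists genes that the authors had called different between boron-treated and control fruit on these same libraries, the smallest change among them being 1.00 on the log2 scale. The boron to control difference of the pair is therefore a description, given with its error and with no test.

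The samples were pulp of Akibae pear (Pyrus pyrifolia) from a university orchard, from fruit given a boron application (3 libraries) or from control fruit, labelled CK (3 libraries). The labels give no boron dose, date of treatment or fruit stage, nor what the control fruit received. Messenger RNA was sequenced, and the libraries held between 1926422 and 2056668 reads of listed genes in the boron group and between 1914312 and 2042566 in the control group. Whether the 3 libraries of a group stem from different trees or fruits is not in the labels, so their spread may be technical. In bulk pulp, fewer cells of a type and less mRNA per cell cannot be told apart.

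Metallothioneins are small proteins rich in cysteine, whose thiol groups hold copper, zinc and other metal ions. In plants they are sorted into types by how the cysteines are arranged, and in Arabidopsis they are known for copper handling and for tolerance of metal excess. Their transcripts are often among the most abundant of a tissue, including ripening fruit, and the cysteines can also react with oxidants.

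Both genes were strongly expressed in control pulp and lower in boron-treated pulp, the protein 1 gene by much more than the type 2 gene. LOC103944923 was 8.16-fold higher in control than in boron libraries, and LOC103944925 was 2.46-fold higher in control. The ratio of the type 2 to the protein 1 transcript was accordingly larger after boron. Their joint share of the listed reads was 2.11% ± 0.0755 after boron, against 7.04% ± 0.302 in control pulp (SD, n = 3 each). The other 5 listed genes described as metallothionein-like were lower in boron-treated pulp as well.

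LOC103944923, annotated as metallothionein-like protein 1 (transcript variant X2), had 8259, 7544 and 8636 normalized counts in boron libraries 1 to 3, against 68050, 62751 and 68649 in control libraries 1 to 3. Normalized counts are reads divided by the authors' size factor for the library. The groups stood far apart, with the highest boron library well below the lowest control library. The mean was 8146 ± 555 in boron libraries and 66483 ± 3246 in control libraries (SD, n = 3 each), so that boron-treated pulp kept 12.3% of the control level. The log2 fold change (boron over control) was -3.03 ± 0.06 (limma SE).

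LOC103944925, annotated as metallothionein-like protein type 2, had 31586, 30078 and 32565 normalized counts in boron libraries 1 to 3, against 82461, 76615 and 72961 in control libraries 1 to 3. The groups again did not overlap, but boron-treated pulp kept 40.6% of the control level. Its mean was 31410 ± 1253 in boron libraries and 77346 ± 4792 in control libraries (SD, n = 3 each), and the log2 fold change was -1.30 ± 0.05 (limma SE). Groups that do not overlap were the rule in this selected table: 97.7% of all listed genes had them, and 25.7% had them with boron lower.

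**Figure D1:**
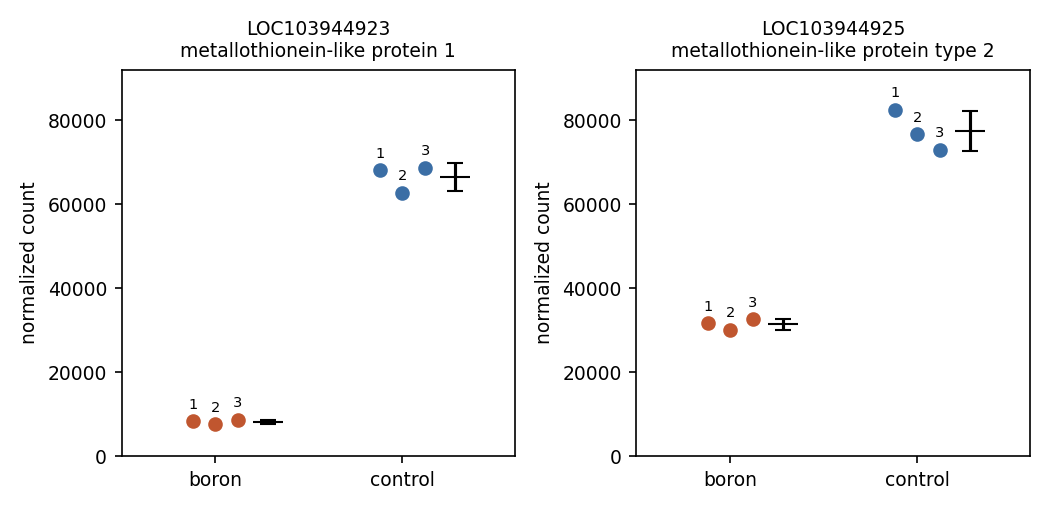
Normalized counts of LOC103944923 and LOC103944925 in the boron and control libraries, with the library number above each point and the mean ± SD beside the points (n = 3 per group). All boron libraries lie below all control libraries for both genes. LOC103944923 is the lower of the pair in every library. Its mean is 8146 against 31410 normalized counts in boron libraries, and 66483 against 77346 in control libraries.

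The spread between libraries was small against these differences. The coefficient of variation of LOC103944923 was 6.81% in boron and 4.88% in control libraries, and that of LOC103944925 was 3.99% in boron and 6.20% in control libraries. Within the boron group both genes were lowest in library 2 and highest in library 3. Within the control group they did not follow each other: LOC103944923 was highest in library 3, where LOC103944925 was lowest.

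Per kilobase of the deposited gene length (1234 bases for LOC103944923 and 640 for LOC103944925), the type 2 gene was the more abundant in every library. Its level was 49078 ± 1958 normalized counts per kilobase in boron and 120852 ± 7487 in control libraries, where that of the protein 1 gene was 6602 ± 450 in boron and 53876 ± 2631 in control libraries. The ratio of type 2 to protein 1, per kilobase, was 7.37, 7.69 and 7.27 in boron libraries 1 to 3, against 2.34, 2.35 and 2.05 in control libraries 1 to 3. This ratio is taken within a library and so does not depend on the library's size factor. Quantile normalization, which does not use a single factor per library, can change it. The log2 fold change of LOC103944925 minus that of LOC103944923 was 1.73, and it stayed between 1.67 and 1.77 when each library was left out in turn. Both genes were selected on this contrast, and the difference is given with no test.

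In rank per kilobase among the 4291 listed genes, LOC103944925 stood at position 2 in each boron and each control library. LOC103944923 stood at positions 26, 27 and 25 in boron libraries 1 to 3 and at position 3 in each control library. By normalized count, with no correction for length, LOC103944925 stood at position 5 in each boron and position 2 in each control library. LOC103944923 stood at positions 28, 32 and 27 in boron libraries 1 to 3 by that measure, and at position 3 in each control library.

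As a share of listed reads, LOC103944923 took 0.434% ± 0.0253 in boron and 3.25% ± 0.133 in control libraries (SD, n = 3 each). LOC103944925 took 1.67% ± 0.0503 in boron and 3.79% ± 0.260 in control libraries. The share of the pair was 2.12%, 2.03% and 2.18% in boron libraries 1 to 3 and 7.39%, 6.89% and 6.85% in control libraries 1 to 3. Among all listed genes, a thiamine thiazole synthase gene (LOC103948770, named after its values were seen), whose share fell by 8.57 percentage points, had the largest loss. The next were LOC103944923, whose share fell by 2.82 points, and LOC103944925, whose share fell by 2.11 points.

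**Figure D2:**
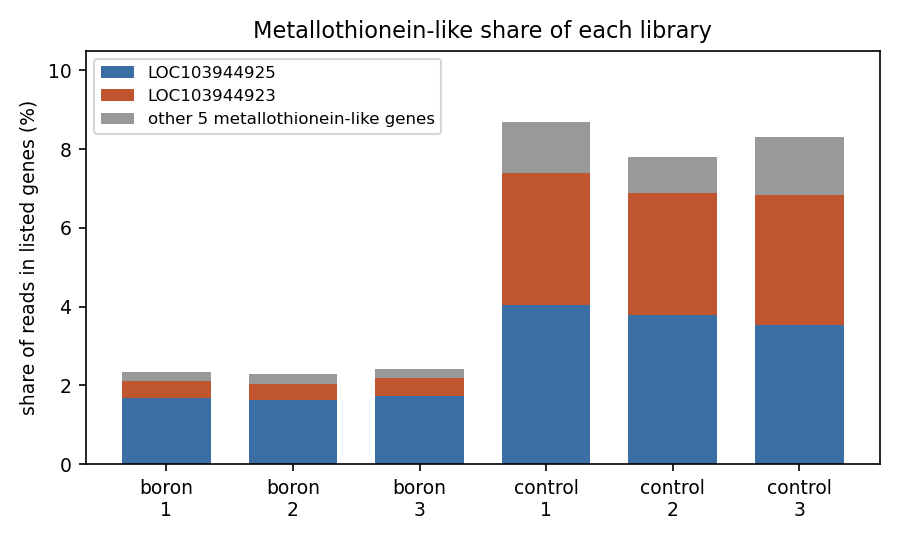
Share of the reads of listed genes (%) taken by LOC103944925, LOC103944923 and the other 5 metallothionein-like genes in each library, boron libraries on the left. The stacked bars reach between 2.29% and 2.41% in boron libraries and between 7.80% and 8.70% in control libraries.

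Set beside other abundant transcripts, the fall of LOC103944923 was among the larger ones and that of LOC103944925 was not. Of 35 listed genes with a control mean of at least 10000 normalized counts, 32 were lower and 3 higher in boron libraries, with a median log2 fold change of -1.47. A choice by the control level favours falls. By size of fall, LOC103944923 held position 3 of these 35 genes and LOC103944925 position 25.

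The authors' deposited table of scores, 1 signal-to-noise value for each of 42194 genes, gave -3.91 for LOC103944923 and -2.11 for LOC103944925. Counted from the lowest score, they held positions 79 and 585 in a table where low scores mark genes lower in boron fruit. The score divides the boron mean minus the control mean by the summed SDs of the groups, and an SD under 0.2 of its mean is raised to that floor. Both genes had SDs under the floor in both groups, so their scores were set by the means alone.

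The size of the fold changes depended on how libraries were scaled, though both stayed negative in all 15 alternatives. With TMM factors computed over the listed genes the log2 fold change was -4.47 for LOC103944923 and -2.74 for LOC103944925. With quantile normalization it was -2.58 and -0.90 in that gene order. TMM and DESeq2-type factors assume that most genes did not change, but the authors had called every listed gene different. Computed over the list, these factors lower the fold changes of all listed genes, so they deepen falls by construction. A modest rise can turn into a fall with them, which is no evidence on its direction. TMM, DESeq2-type and quantile scaling shifted the median over all listed genes by -1.40, -1.35 and -1.25 from its value of 1.62. Relative to that median, LOC103944923 lay at -4.65 with the authors' factors, -4.69 with TMM and -2.94 with quantile scaling. LOC103944925 lay at -2.92, -2.96 and -1.27 in the same order of scalings.

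The pair belongs to a short run of metallothionein-like genes. In the coordinates of the deposited table, for which the labels and headers name no genome build, LOC103944923 spans 349808 to 354766 of scaffold NW_008988068.1 and LOC103944925 spans 341839 to 342796. One more gene, LOC103944922 (metallothionein-like protein 1), lies at 335363 to 336149, and all 3 are on the minus strand. Gaps of 7011 and 5689 bases separate them, and no other listed gene lies within the stretch of 19404 bases. The table gives gene ends only, so exons and introns were not placed. The span of LOC103944923 is 4959 bases for a gene length of 1234, while LOC103944925 spans 958 bases for a length of 640.

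Listed neighbours further out did not all go the same way. Besides LOC103944922, 3 listed genes start within 100 kb of LOC103944923 or LOC103944925. A U-box domain protein 33-like gene (LOC103944932), of a family that includes ubiquitin ligases, had 800.1 ± 39.2 normalized counts in boron and 217 ± 12.8 in control libraries, a log2 fold change of 1.88 ± 0.10. An actin gene (LOC103944933) had 286 ± 27.6 in boron and 678 ± 39.6 in control libraries, a log2 fold change of -1.24 ± 0.11. A glucan endo-1,3-beta-glucosidase-like gene (LOC103944915) had 243 ± 41.2 in boron and 531 ± 38.0 in control libraries, a log2 fold change of -1.13 ± 0.13. Of the 15 listed genes on the scaffold, 9 had a positive and 6 a negative fold change, against 6 and 9 with TMM scaling. Among all passing listed genes 73.5% were higher with the authors' factors and 53.6% with TMM scaling.

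**Figure D3:**
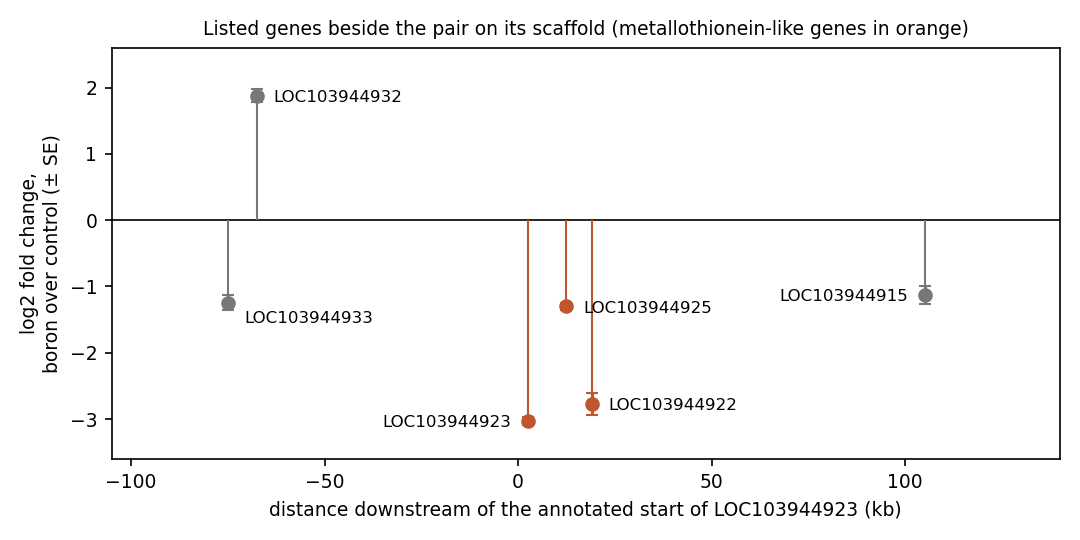
Log2 fold change (boron over control, ± limma SE) of the listed genes that start within 100 kb of the pair, plotted by the distance of the middle of each gene downstream of the annotated start of LOC103944923, in kb. LOC103944923, LOC103944925 and LOC103944922 (orange) lie together at -3.03, -1.30 and -2.77. Further out, LOC103944933 lies at -1.24, LOC103944915 at -1.13 and LOC103944932 at 1.88.

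All 7 listed genes described as metallothionein-like had a negative log2 fold change. The 5 outside the pair passed the limma test with boron lower. Of all listed genes, 26.2% passed with boron lower and 73.0% with boron higher, 99.2% in all. The authors' selection on this contrast fixes that nearly every listed gene passes, though not its direction, and the direction of these genes was known when they were chosen, so nothing is read from their count. The median log2 fold change of the 7 genes was -2.77, beside 1.62 for all listed genes. All 7 fold changes were also negative under quantile scaling, and under TMM and DESeq2-type scaling, which deepen falls by construction. In order of their mean over all libraries, LOC103944925 and LOC103944923 came before the rest.

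LOC103954313, a type 2 gene on another scaffold (NW_008988151.1, 686979 to 687883), came next. It had 4347, 4711 and 4265 normalized counts in boron libraries 1 to 3, against 25280, 17231 and 28871 in control libraries 1 to 3. Control library 2 was low for this gene, and the control coefficient of variation of 25.05% was several times that of either gene of the pair. The log2 fold change was -2.39 ± 0.16. Per kilobase its level, 7565 ± 404 in boron libraries, was above that of LOC103944923 in every boron library and below it in every control library.

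LOC103933440, a type 2 gene, had 30.05, 6.31 and 26.5 normalized counts in boron libraries 1 to 3, against 973, 838 and 858 in control libraries 1 to 3. It kept 2.36% of the control level, a log2 fold change of -5.59 ± 0.46. LOC103944922, the protein 1 gene of the run, had 37.8, 43.3 and 35.3 in boron libraries, against 273, 272 and 265 in control libraries, a log2 fold change of -2.77 ± 0.17. The genes annotated as protein 1 had similar fold changes at very different levels, with means of 8146 and 38.8 normalized counts in boron libraries. Whether reads were shared between these genes was not tested.

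The least abundant were another pair of type 2 genes on scaffold NW_008988151.1, 2014 bases apart on the plus strand. LOC103954323 had 1 read in the boron libraries together and 274 reads in the control libraries, which makes the control level 300-fold the boron level, with a 95% counting interval of 53.3 to 11878. LOC103954322, named after its values were seen, had 6.78, 12.6 and 9.81 normalized counts in boron libraries and 45.9, 49.96 and 44.3 in control libraries. Counting intervals cover counting error only. Reads of near-identical metallothionein copies may have been shared or split between genes, so the values of single copies are uncertain, those of the faint copies most of all.

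**Figure D4:**
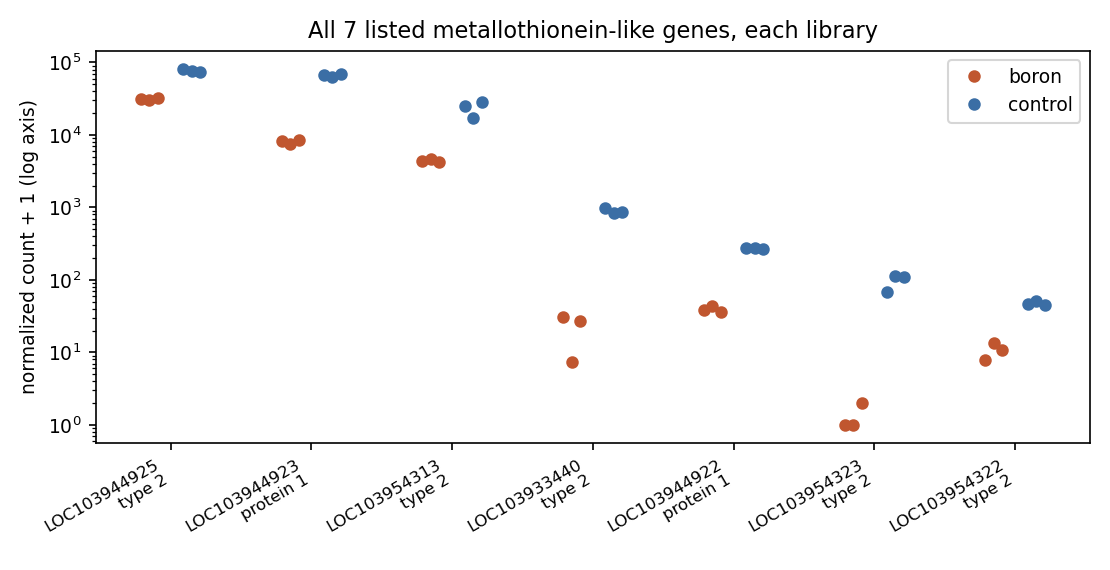
Normalized counts plus 1, on a log axis, of the 7 listed metallothionein-like genes in each library, ordered by their mean, with boron points left of control points. Boron points lie below control points for every gene, and the levels run from a boron mean of 31410 for LOC103944925 down to 1 read in the boron libraries for LOC103954323.

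The 5 metallothionein-like genes outside the pair took 0.241% ± 0.0148 of listed reads in boron and 1.23% ± 0.281 in control libraries. The pair therefore held most reads of the listed metallothionein-like genes in both groups. Its part was 89.7% ± 0.897 in boron and 85.2% ± 2.92 in control libraries (SD, n = 3 each). Any metallothionein genes outside the list have no library values and are not counted. The share of the 5 genes ranged more widely in control than in boron libraries, with control library 2 the lowest at 0.915%.

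Other listed genes that move, store or bind metals did not share one direction. The metal homeostasis list, chosen by words in the gene description, had 30 listed members including the 7 metallothionein-like genes, of which 14 rose and 16 fell (limma, adjusted p under 0.05), with a median log2 fold change of -1.02. Without the metallothionein-like genes it had 23 members, 14 higher and 9 lower (60.9% of passing members higher, beside 73.5% of all passing listed genes), with a median of 1.36 beside 1.62 for all listed genes. With TMM or DESeq2-type scaling the whole list had 6 members higher and 17 lower, and with quantile scaling 10 and 16. Over all listed genes the numbers were 1433 higher and 1241 lower with TMM, 1486 and 1216 with DESeq2-type and 1527 and 1145 with quantile scaling.

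Among the members that fell, a heavy metal-associated isoprenylated plant protein 3-like gene (LOC103965488), whose family carries a metal-binding domain, had 886 ± 37.2 normalized counts in boron and 4329 ± 147 in control libraries. Its log2 fold change was -2.29 ± 0.07. A zinc transporter 4 gene (LOC103952105), of a family that moves zinc and iron across membranes, had 123 ± 27.4 in boron and 530 ± 11.5 in control libraries, a log2 fold change of -2.11 ± 0.16. Chosen after their values were seen, a copper transport protein ATX1-like gene (LOC103928650), for a kind of chaperone that hands copper on within the cell, had 739 ± 25.7 in boron and 1871 ± 135 in control libraries. A ferritin-4 gene (LOC103930157), for a protein that stores iron, had 1053 ± 45.8 in boron and 3368 ± 225 in control libraries. All 4 of these genes also passed with boron lower under quantile scaling, and under TMM and DESeq2-type scaling, which deepen falls by construction.

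Among the members that rose, a ferric reduction oxidase 6-like gene (LOC103967917), for an enzyme that reduces iron before uptake, had 99.8 ± 6.14 normalized counts in boron and 12.8 ± 4.01 in control libraries. Its log2 fold change was 2.92 ± 0.30. The isoprenylated metal-binding protein genes LOC103964029 and LOC103938882 had log2 fold changes of 4.24 ± 0.37 and 2.97 ± 0.37. LOC103967917, LOC103964029 and LOC103938882 also passed with boron higher under the other scalings. A metal-nicotianamine transporter YSL7 gene (LOC103943202), chosen after its values were seen, had 3626 ± 218 in boron and 1606 ± 100.1 in control libraries. Its log2 fold change of 1.17 was -0.26 with TMM and -0.22 with DESeq2-type scaling, where the gene passed with boron lower. Those scalings lower the fold changes of all listed genes, so the change of sign is no evidence on direction. With quantile scaling the fold change was 1.23. A ferritin-3 gene (LOC103958647), also chosen after its values were seen, had 814 ± 219 in boron and 353 ± 23.9 in control libraries, and its log2 fold change of 1.17 was -0.26 with TMM scaling, which did not pass. The ferritin genes thus differed in direction with the authors' size factors and with quantile scaling. They did not with TMM or DESeq2-type scaling, which lower the fold changes of all listed genes.

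**Figure D5:**
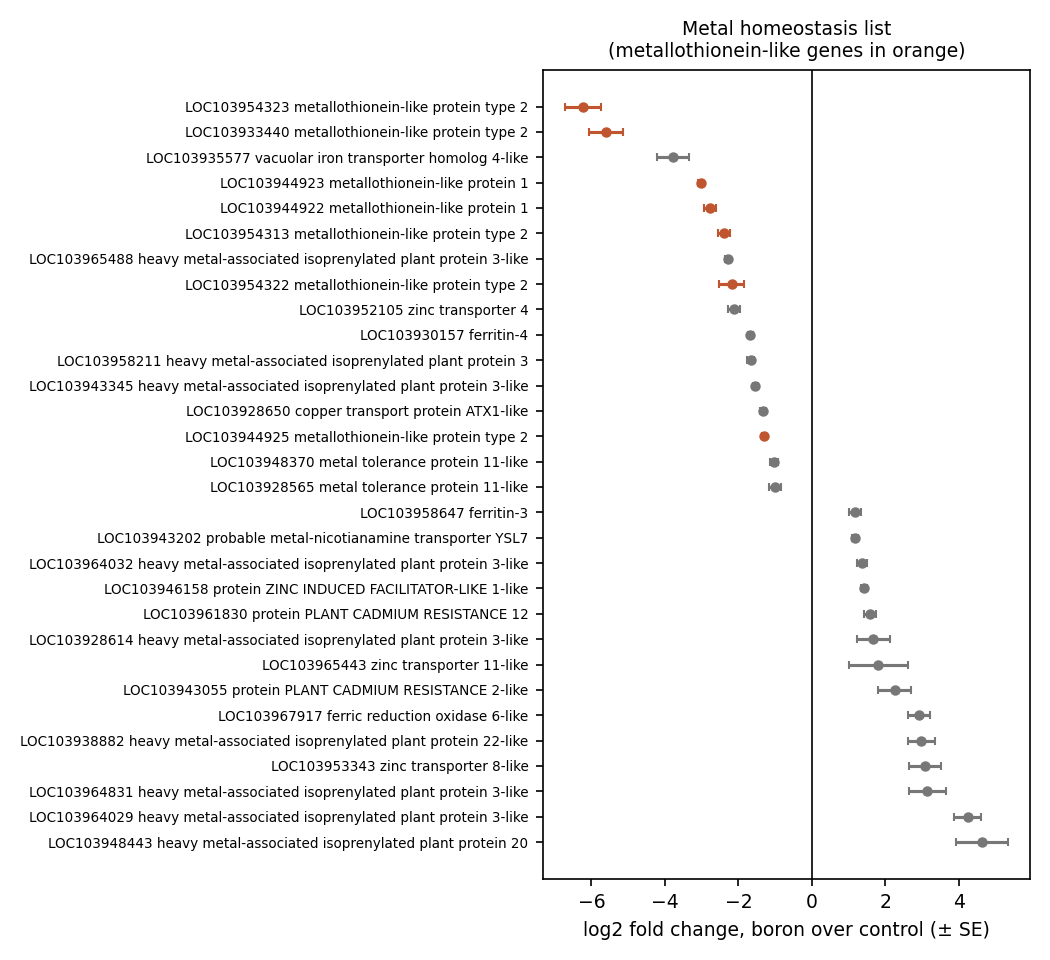
Log2 fold change (boron over control, ± limma SE) of the 30 listed members of the metal homeostasis list, ordered from the largest fall at the top to the largest rise at the bottom. The 7 metallothionein-like genes (orange) all lie left of 0, from -6.23 (LOC103954323, whose fitted value depends on the pseudocount) to -1.30, and the other 23 genes lie on both sides.

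The redox enzyme list was chosen because metallothioneins can react with oxidants too. It holds glutathione S-transferases, glutaredoxins and thioredoxin-like proteins as well as enzymes that act on oxidants. With the authors' size factors it split between the directions much as all listed genes did. Of 22 listed members 15 rose and 6 fell, so that 71.4% of passing members were higher, beside 73.5% of all passing listed genes. The median log2 fold change was 1.33, beside 1.62. The member that did not pass was a probable ascorbate peroxidase (LOC103929006), named for that after its values were seen. With TMM, DESeq2-type and quantile scaling 4 passing members were higher and 7 lower, a smaller part higher than among all listed genes. Of all passing listed genes 53.6%, 55.0% and 57.1% were higher in that order of scalings. Of the 5 most abundant members 4 fell with every scaling tried, though TMM and DESeq2-type scaling deepen falls by construction. The highest, a probable glutathione S-transferase (LOC103955337), had 896 ± 63.3 normalized counts in boron and 2071 ± 124 in control libraries, a log2 fold change of -1.21 ± 0.08. The others that fell were a zeta-class glutathione S-transferase (LOC103946431), with a log2 fold change of -1.29 ± 0.08, a phospholipid hydroperoxide glutathione peroxidase (LOC103938481), with -1.09 ± 0.17, and a microsomal glutathione S-transferase 3-like gene (LOC103959446), with -1.33 ± 0.15. Glutaredoxin-C9 (LOC103936306) rose, with 790 ± 30.4 in boron and 371 ± 109 in control libraries. It had a log2 fold change of -0.31 with TMM and -0.26 with DESeq2-type scaling, which lower the fold changes of all listed genes.

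Genes whose profile over the 6 libraries was nearest to that of each member were different ones. Nearness was the Euclidean distance between log2(normalized count + 1) values centred on each gene's own mean, over 1685 listed genes with a mean of at least 100 normalized counts. It is a description, dominated by the size of the difference between the groups. The 5 nearest to LOC103944923 were LOC103957421 and LOC103944466 (both uncharacterized), an EamA-like transporter gene (LOC103943340), an alcohol dehydrogenase-like gene (LOC103966279) and pyruvate decarboxylase 2 (LOC103965128), at distances of 0.228 to 0.280. The last of these had 4697 ± 353 normalized counts in boron and 33432 ± 1443 in control libraries.

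The 5 nearest to LOC103944925 were an alpha carbonic anhydrase 4-like gene (LOC103953214), LOC103950840 (uncharacterized), a UDP-glycosyltransferase 87A1-like gene (LOC103958954), a uracil phosphoribosyltransferase gene (LOC103949393) and a zeaxanthin epoxidase-like gene (LOC103956812), at distances of 0.0555 to 0.113. The nearest had 596 ± 19.3 normalized counts in boron and 1504 ± 104 in control libraries. The distance between LOC103944923 and LOC103944925 was 2.13. LOC103944925 was only the 314th nearest gene to LOC103944923, and LOC103944923 the 575th nearest to LOC103944925.

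Markers of other tissues that pulp might hold were at hand only where the authors had called them on this contrast, so that they differ follows from the selection. Boron was higher in 73.0% of all listed genes. All 5 listed peel markers were higher in boron libraries (4 of 5 with quantile scaling), where their summed level was 985 to 1081 normalized counts, against 159 to 200.4 in control libraries. All 6 listed vascular markers were higher (5 of 6 with TMM and DESeq2-type scaling), with sums of 583 to 673 in boron and 144 to 163 in control libraries. Of 6 listed seed markers 5 were higher and 1 lower, with sums of 1905 to 2044 in boron and 2309 to 2590 in control libraries. In these sums the 1 gene that fell outweighed the 5 that rose. A lipid-transfer protein 1-like gene of the peel list and a fasciclin-like gene of the vascular list had no read in any control library, and were picked out for that after their values were seen. The part of these tissues in the metallothionein values was not tested.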

How the data were processed

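Messenger RNA of pear pulp was sequenced in 3 boron and 3 control libraries. Per the submitters' processing notes HISAT2 was used. The counting tool, strand use, genome build and the test behind the authors' p-values are not stated in those sources. The deposited library values (signal) are counts per gene after division by the authors' size factor. In each library all 4291 values came out as whole reads (tolerance 0.01 reads) once multiplied by that factor. The deposited table also gives the authors' log2 fold changes and p-values, per the file headers, and gene length in bases, another value, as deposited. The second table holds a score that the authors deposited for 42194 genes; its formula gave back the score of all 4070 shared genes with both groups above 0 within 1e-05.

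limma 3.58.1 (R 4.3.3; trend and robust options) was fitted on log2(normalized count + 1) over all 4291 listed genes, two-sided. P-values were adjusted by Benjamini-Hochberg and called under 0.05. The design had foreseen a wider table. Simulated counts, with 200 changed genes among unchanged ones, were used to check the procedure. That setting differs from the listed genes, all called by the authors, so nothing is read from it. Standard errors come from the same fit. Alternatives were TMM (edgeR 4.0.16), DESeq2-type and quantile scaling, pseudocounts of 0.5 and 5, a mean of at least 100 normalized counts, edgeR and DESeq2 1.42.0 on the recovered reads, a replicate block, and each library left out. Count tests on recovered reads called 4257 (edgeR) and 4291 (DESeq2) listed genes.

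The genes and lists were chosen with earlier results of these data known. By rule, the text named both genes, the 10 members of the metal list with the largest change and at least 50 normalized counts in the higher group, the 5 most abundant redox enzymes, the 5 nearest profiles and listed neighbours. Other named genes are identified as chosen after their values were seen.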

Additional observations from a re-analysis of the deposited data

How the results depend on the processing

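The log2 fold changes of LOC103944923 and LOC103944925 kept their negative sign in all 15 alternatives, and in 12 of them each moved by less than the SD between libraries. The replicate block and the filter on the mean are 2 of these 12 and leave the fold change as it is by construction. The fold changes moved further with TMM (-4.47 and -2.74), DESeq2-type (-4.42 and -2.69) and quantile scaling (-2.58 and -0.90). TMM and DESeq2-type factors assume that most listed genes did not change, which the authors' selection goes against. Quantile scaling gives all libraries the same distribution of values. With each library left out in turn the fold changes ranged from -3.07 to -2.98 and from -1.34 to -1.25. The number of listed genes that passed, 4257 (3131 higher, 1126 lower), was 2674 with TMM (1433 higher, 1241 lower), 2702 with DESeq2-type (1486 and 1216) and 2672 with quantile scaling (1527 and 1145), and 1684 with a mean of at least 100 normalized counts, where fewer genes were tested. Of those 1684 genes, 1049 were higher and 635 lower (62.3% higher). That filter left 18 passing members of the metal list (5 higher, 13 lower) and 6 of the redox list (2 higher, 4 lower), against 30 and 21 in the fit reported. TMM, DESeq2-type and quantile scaling each left 11 of the redox list. A mean of at least 100 normalized counts was met by 5 of the 7 metallothionein-like genes. The replicate block gave 4258 passing genes. Libraries share only a number: deviations of same-numbered libraries correlated at -0.0961, 0.00446 and -0.107 over 1686 genes, and no library correlated best with its own number. The depth of listed reads limits LOC103954323 and LOC103954322, with 1 and 31 reads in the boron libraries.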
